A study of Populus tremula x Populus tremuloides with 6 samples.

Results

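Among the 37327 transcribed loci counted in leaves of sun-exposed hybrid poplar, 30 were higher in all 3 MYB134 RNAi plants than in all 3 wild-type (WT) plants by a margin of more than 1.5-fold. They were chosen by their values: the level of a locus, in counts per 1000000 counts assigned to loci (CPM), had to average at least 1 over the 3 RNAi libraries, and the lowest RNAi value had to exceed 1.5 times the highest WT value. The abundance floor was met by 21119 loci, so the 30 members made up 0.142% of them. Since this choice used the comparison of RNAi with WT, the gains given here describe the members and are not tested, and the size of the set is no evidence of an effect of the RNAi.

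Both groups were Populus tremula x Populus tremuloides of the clone INRA 353-38, raised from tissue culture for 1 month under mist and for 2 months in a greenhouse, then set outdoors in natural sunlight for 2 weeks. The WT plants are labelled by that genotype alone. The RNAi plants carried sense and antisense copies of a 169 bp piece of the MYB134 coding sequence under a ubiquitin promoter, which is active in most cells rather than in 1 leaf cell type. All 3 RNAi titles hold the number 24, and whether it marks 1 transformation event was not stated. The groups described here include no empty-vector control. The design text describes 3 saplings per group, and each library is 1 leaf sample.

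MYB134 is an R2R3-type MYB transcription factor known in poplar as an activator of the genes that make proanthocyanidins, the condensed tannins that accumulate in leaves after strong light, wounding or infection. These polymers come from the flavonoid pathway, which also gives flavonols and anthocyanins and draws on phenylalanine. An RNAi hairpin is cut into small RNAs that guide the breakdown of matching transcripts. The files name loci by number and give no gene names, coordinates or sequences. The identity of the members, the MYB134 transcript itself, the extent of the knockdown and the leaf markers were therefore not analysed here, and only 2 locus numbers are printed.

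The RNAi libraries held between 46206808 and 95496664 counts in loci and the WT libraries between 24001320 and 37628544, so every RNAi library was deeper than every WT library. A count of 3, taken as the lowest level that a library can exclude, equalled 0.0314 CPM in the deepest library and 0.125 CPM in the shallowest. RNAi replicate 3, the deepest library, also stood apart in its values: it exceeded both other RNAi plants more than 2-fold at 1290 of the 21119 loci past the floor (6.11%), against 95 in RNAi replicate 2, 12 in RNAi replicate 1 and 411 in WT replicate 2 within its own group. The floor uses the RNAi mean, so 1 high RNAi value can bring a locus past it and a high WT value cannot. The count for WT replicate 2 is therefore not a like comparison. Because RNAi replicate 3 stood apart, some results are given with and without it.

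Most members were weakly expressed, and most gains were modest. The ratio of the RNAi mean to the WT mean lay between 1.76 and 6.44, with a median of 2.60. The same ratio had a median of 1.06 over the 21117 loci past the floor that had a count in WT. A mean gain above 2-fold was found at 27 members, above 3-fold at 13, above 4-fold at 7 and above 5-fold at 3. In bulk leaf RNA, more cells of a type and more RNA per cell cannot be told apart.

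Gaps between the groups are by construction no wider than the mean gains. The lowest RNAi value was between 1.5001 and 2.70 times the highest WT value, with a median of 1.64, and only 3 members had a gap of more than 2-fold. At 12 members the gap lay between 1.5 and 1.6, and 20 loci past the floor lay just outside the margin, between 1.4 and 1.5. The member nearest the margin had 0.850 CPM as its WT mean and 2.22 CPM as its RNAi mean, with a gap of 1.5001; the nearest locus outside had a gap of 1.4993 and an RNAi mean of 2.17 CPM. The next locus outside was abundant. It had 288, 271 and 179 CPM in WT and 537, 507 and 431 CPM in RNAi replicates 1, 2 and 3, with a gap of 1.497.

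The floor also decided membership. The member with the lowest level had an RNAi mean of 1.03 CPM, and the nearest locus below the floor had 0.995 CPM, of which nearly all came from RNAi replicate 3 (2.67 CPM, against 0.238 and 0.0769 CPM in replicates 1 and 2). In all, 297 further loci met the margin with an RNAi mean under 1 CPM, and 173 of them had 0 counts in every WT library. No member had 0 counts in all 3 WT libraries.

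**Figure D1:**
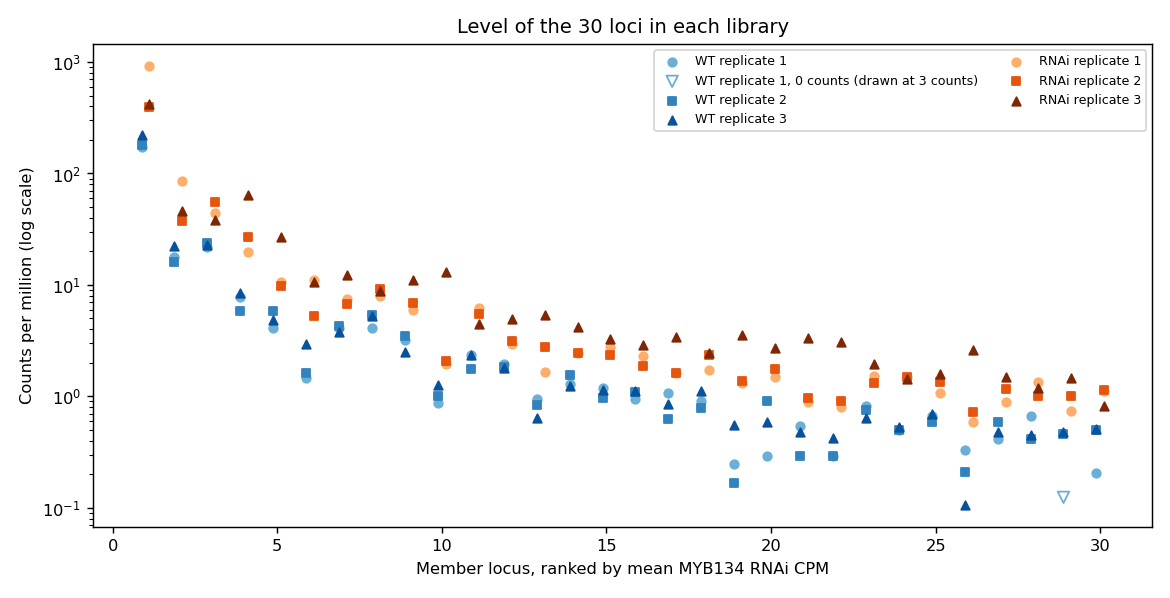
Level of each of the 30 members in each of the 6 libraries, in CPM on a log axis, with members ranked by their RNAi mean. Every RNAi point lies above every WT point of its locus, as the rule requires, and 25 of the 30 members have an RNAi mean under 10 CPM. The open triangle is the 1 value of 0 counts, drawn at the level of 3 counts.

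In abundance the set was weighted towards weak loci. The RNAi mean was between 1 and 2 CPM at 11 members, between 2 and 5 CPM at 8, between 5 and 10 CPM at 6, between 10 and 100 CPM at 4 and above 100 CPM at 1. Means under 5 CPM thus made up 63.3% of the members, against 29.5% of all loci past the floor. The median RNAi mean was 2.57 CPM among members and 11.1 CPM among all loci past the floor. The WT mean was under 1 CPM at 15 members. CPM is not corrected for transcript length, which the files do not give, so this order is one of reads and not of transcript molecules.

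Depth limited the weak members. At 7 of the 30 members at least 1 library had fewer than 10 counts, and at 1 of them WT replicate 1 had 0 counts. In that library 3 counts equal 0.124 CPM, and the 95% exact Poisson interval of 0 counts reaches 0.153 CPM. The 95% exact Poisson intervals of the lowest RNAi value and the highest WT value were apart at 14 members and overlapped at 16. These intervals cover counting error only, and not the spread between plants.

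The most abundant member, XLOC_035233, was higher by about the same ratio as the median member but at a far higher level. It had 172, 182 and 221 CPM in WT replicates 1, 2 and 3, a mean of 192 ± 25.9 (SD, n = 3). It had 923, 394 and 421 CPM in RNAi replicates 1, 2 and 3, a mean of 579 ± 298 (SD, n = 3). RNAi replicate 1 stood more than 2-fold above the other RNAi plants, which were close to each other. The 95% counting intervals were 216 to 226 CPM for the highest WT plant and 389 to 399 CPM for the lowest RNAi plant, so counting error was small beside the difference between plants. The ratio of means was 3.02, and edgeR's fitted log2 fold change was 1.57. Without RNAi replicate 1 the fitted log2 fold change was 0.93.

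The second most abundant member followed the same pattern over plants with 9.22 to 11.4 times fewer reads. It had 17.9, 15.96 and 22.5 CPM in WT replicates 1 to 3 and 85.9, 37.8 and 45.7 CPM in RNAi replicates 1 to 3. In each group the order of the plants was that of XLOC_035233, except that WT replicates 1 and 2 changed places. The ratio of XLOC_035233 to this locus was 9.63, 11.4 and 9.82 in the WT plants and 10.8, 10.4 and 9.22 in the RNAi plants, so its highest value was 1.24 times its lowest. Over the 253 pairs of the 23 members with at least 10 counts in every library, this figure had a median of 2.39, and this pair was the third most constant. Counting error alone widens the figure at members with few counts, so the median is not a like comparison for this pair. The files do not show whether the 2 loci are related in sequence, and reads that fit near-identical copies can be shared or set aside in counting. The sixth most abundant member was also highest in RNAi replicate 1, with 11.1 CPM against 5.25 and 10.5 CPM in replicates 2 and 3 and between 1.45 and 2.98 CPM in WT.

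The widest gap between the groups was at a weak locus. XLOC_031430 was the member with the largest ratio of lowest RNAi to highest WT value, 2.70, among those with at least 10 counts in every library, and also among all 30. It had 0.497, 0.49997 and 0.532 CPM in WT replicates 1 to 3 and 1.49, 1.499 and 1.43 CPM in RNAi replicates 1 to 3. Both groups were tight, with means of 0.509 ± 0.0193 and 1.48 ± 0.0355 CPM (SD, n = 3 each). These values rest on 12, 12 and 20 counts in WT and 69, 78 and 137 counts in RNAi. The 95% counting interval of each WT value was wider than the spread between the WT plants, at 0.257 to 0.867 CPM in WT replicate 1, and the lowest bound in the RNAi plants was 1.16 CPM. The locus was named for the widest gap, which favours loci whose plants lie close together. Its small spread is thus partly set by the choice. The ratio of means was 2.90, and edgeR's fitted log2 fold change was 1.46.

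Other members with at least 10 CPM in the RNAi mean differed in how evenly the RNAi plants carried the gain. The third most abundant member had 22.01, 23.9 and 22.9 CPM in WT and 44.0, 55.4 and 38.3 CPM in RNAi, a ratio of means of 2.00 with RNAi replicate 3 the lowest of its group. The fourth had 7.86, 5.83 and 8.40 CPM in WT and 19.6, 26.9 and 63.5 CPM in RNAi. Its ratio of means was 4.98, with RNAi replicate 3 more than 2-fold above the other RNAi plants. The fifth had between 4.10 and 5.83 CPM in WT and 10.6, 9.72 and 27.0 CPM in RNAi, again highest in RNAi replicate 3.

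**Figure D2:**
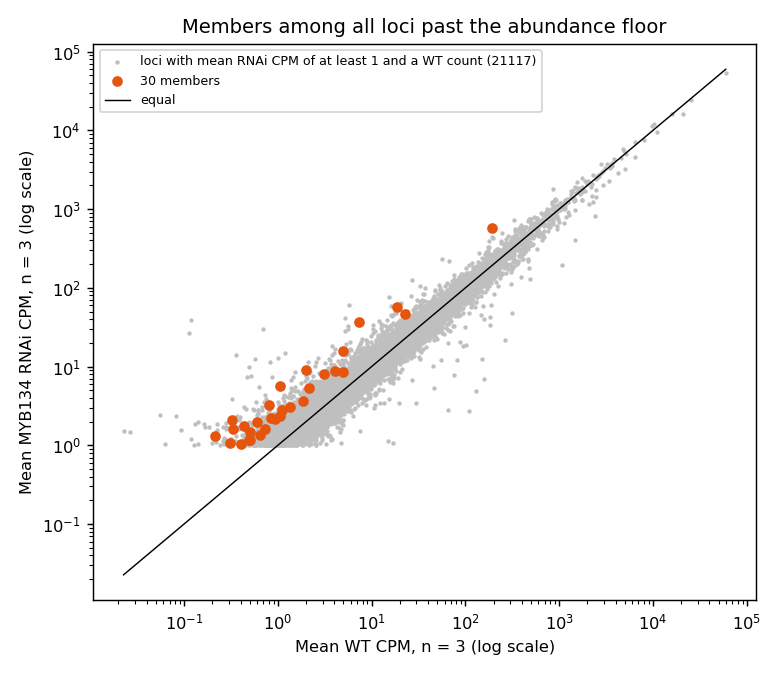
Mean MYB134 RNAi level against mean WT level of the 21117 loci past the abundance floor with a WT count, both in CPM on log axes and over 3 plants each, with the 30 members in orange and the line of equal levels. Members lie above the line by 1.76-fold to 6.44-fold, and several grey loci that are not members lie farther from it.

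A large mean gain was not what set the members apart. A ratio of means above 2 was found at 504 loci past the floor (2.39%), and 477 of them were not members. At 383 of these 477 the groups overlapped, and at 409 (85.7%) RNAi replicate 3 exceeded both other RNAi plants more than 2-fold. Above 4-fold there were 91 loci, of which 7 were members. Of the 84 others, 82 had RNAi replicate 3 more than 2-fold above both other RNAi plants. Most of the largest mean gains in this comparison were thus carried by 1 plant, and the requirement on every plant removed them.

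RNAi replicate 3 nevertheless shaped the size of the gains within the set. It was the highest RNAi plant at 21 of the 30 members (70.0%), against 51.6% of all loci past the floor. At the 1884 loci past the floor whose groups did not overlap, with RNAi higher, it was highest at 75.2%. The share at the members was thus not above that of loci higher in RNAi. Among the 11 members with an RNAi mean of at least 5 CPM the share was 45.5%. RNAi replicate 1 was highest at 5 members and replicate 2 at 4, with 8.62% and 39.8% over all loci. Among the lowest RNAi values, replicate 1 gave 15, replicate 2 gave 11 and replicate 3 gave 4. The most frequent order, replicate 3 over 2 over 1, was found at 14 members, and replicate 3 over 1 over 2 at 7.

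Relative to the WT mean, the median gain of the 30 members was 2.17 in RNAi replicate 1, 2.21 in replicate 2 and 3.02 in replicate 3. The ranges were 1.59 to 5.48, 1.65 to 4.27 and 1.67 to 12.4. Over all loci past the floor the corresponding medians were 0.932, 1.08 and 1.13.

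**Figure D3:**
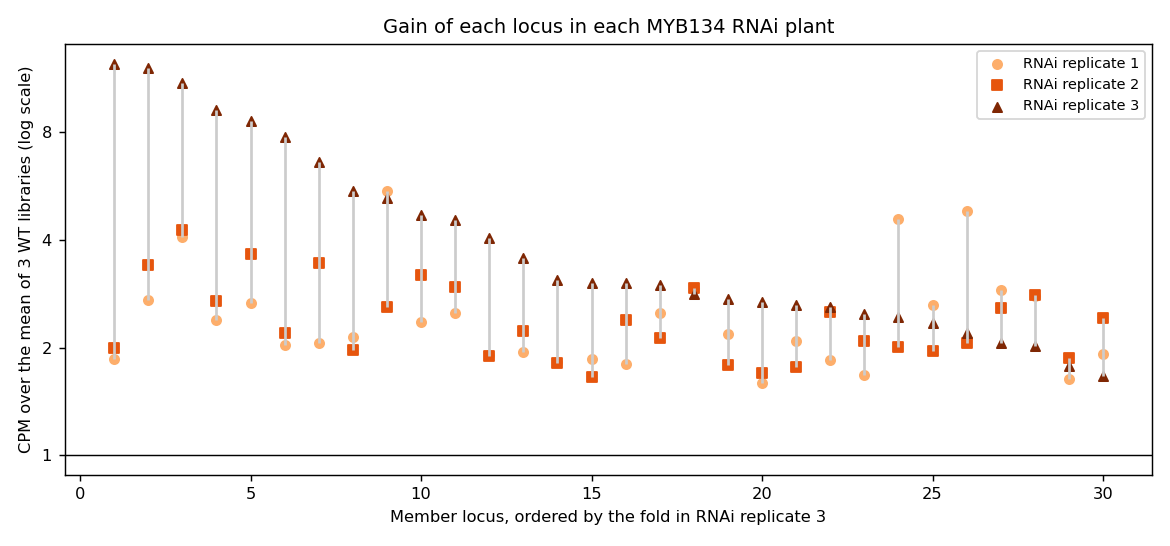
Gain of each of the 30 members in each RNAi plant, as its CPM over the mean of the 3 WT libraries on a log axis, with members ordered by the gain in RNAi replicate 3 and grey lines joining the 3 plants. The gain in RNAi replicate 3 runs from 12.4 to 1.67, while replicates 1 and 2 lie between 1.59 and 5.48.

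The members fell into 3 kinds by their pattern over the RNAi plants, a division made after the values were seen. At 8 members RNAi replicate 3 was more than 2-fold above both others; there the ratio of means was 2.62 to 6.44, but the mean of replicates 1 and 2 was 1.90 to 4.17 times the WT mean, with a median of 2.33. This kind included 5 of the 7 members with a ratio above 4, and its RNAi means ran from 1.31 to 36.7 CPM. The clearest case was the tenth most abundant member, with 1.95, 2.09 and 13.0 CPM in RNAi replicates 1 to 3 and between 0.869 and 1.28 CPM in WT.

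At 13 members RNAi replicate 3 was highest by 2-fold or less, with ratios of means of 1.99 to 4.04. At the remaining 9 members another RNAi plant was highest. These 9 included the 3 most abundant members and XLOC_031430. The RNAi plants lay within 1.5-fold of each other at 10 members and within 1.2-fold at 2, one of which was XLOC_031430 and the other the eighth most abundant member. That locus had 8.01, 9.15 and 8.73 CPM in the RNAi plants and 4.10, 5.33 and 5.29 CPM in WT, with the smallest ratio of means in the set, 1.76.

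The RNAi plants differed more among themselves than the WT plants did at the members, and less so over all loci. The rule limits the highest WT value and not the highest RNAi value, and its floor uses the RNAi mean. The wider RNAi spread at the members is therefore partly set by the choice. The highest RNAi value was a median of 1.82 times the lowest at the members and 1.498 times over all loci past the floor. In WT the median was 1.41 at the 29 members with a count in every WT plant and 1.30 over all loci. No WT plant was high at most members: replicate 3 was the highest at 13, replicate 1 at 9 and replicate 2 at 8. Over all loci past the floor WT replicate 2 was the highest at 54.3%. The rule keeps out loci at which any WT plant is high, so this difference is not a trait of the members apart from the choice.

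**Figure D4:**
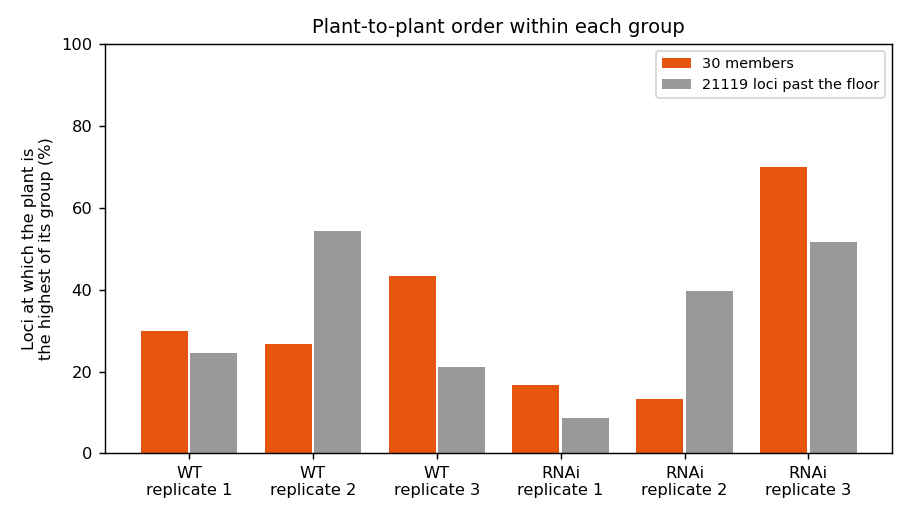
Percentage of loci at which each plant was the highest of the 3 in its group, for the 30 members and for the 21119 loci past the abundance floor. RNAi replicate 3 was the highest RNAi plant at 70.0% of members and at 51.6% of all loci, and WT replicate 2 the highest WT plant at 26.7% and 54.3%. The rule keeps out loci at which a WT plant is high, which bears on the WT bars. At the 1884 loci whose groups did not overlap, with RNAi higher, RNAi replicate 3 was highest at 75.2% (not drawn).

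Together the members took a small part of the leaf RNA. Their summed level was 253, 264 and 312 CPM in WT replicates 1 to 3 and 1153, 590 and 708 CPM in RNAi replicates 1 to 3, or 0.0276% ± 0.00311 and 0.0817% ± 0.0297 of counts (SD, n = 3 each). The sum was led by XLOC_035233, which gave between 59.5% and 80.1% of it. Without this locus the sums were 81.3, 82.3 and 90.7 CPM in WT and 230, 196 and 286 CPM in RNAi. RNAi replicate 1 had the highest sum with XLOC_035233 and RNAi replicate 3 without it. The ratio of group means was 2.95 with and 2.80 without this locus.

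Each RNAi plant was also read at loci chosen without it. It is then compared with the same WT libraries that chose the loci, whose low values raise the shares, so these are a description and do not show that the pattern carries over. From the 3 WT libraries and RNAi replicates 1 and 2, 46 loci were chosen. RNAi replicate 3 was above 1.5 times the highest WT value at 26 of them (56.5%) and was below all 3 WT plants at 7 (15.2%). Over all 20833 loci past the floor without it, RNAi replicate 3 met this margin at 13.3%. With TMM-scaled CPM (edgeR's trimmed mean of M-values) the share at the chosen loci was 37.8%. The ratio to the WT mean at the 46 loci had a median of 2.04 in RNAi replicate 3 and 2.26 in the plants used to choose them.

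The other RNAi plants gave shares further apart. RNAi replicate 2 met the margin at 34 of 61 loci chosen without it (55.7%). RNAi replicate 1 met it at 33 of 183 (18.0%), with a median ratio of 1.29 to the WT mean. Over the 21379 loci past the floor without it, RNAi replicate 1 met the margin at 0.416%. The shares over all loci thus differed widely between the RNAi plants, and were highest for RNAi replicate 3. The set chosen without RNAi replicate 1 was the largest of the 6 that leave out a library, and 150 of its 183 loci did not meet the margin in that plant.

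Leaving a WT plant out of the choice only loosens the rule: it gave 77, 85 and 99 loci without WT replicates 1, 2 and 3, and the 30 at which the left-out plant also met the margin are the members themselves. The loci at which a left-out RNAi plant met the margin were mostly members too. Members were 26 of 26 for RNAi replicate 3, 29 of 34 for replicate 2 and 29 of 33 for replicate 1.

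In the fit across all loci, no member passed an adjusted threshold in edgeR. The quasi-likelihood test of 24853 loci called 0 loci higher at a Benjamini-Hochberg adjusted p of 0.05 (0%), and 647 (2.6%) at an unadjusted p under 0.05, of which 29 were members. Limma-voom also called 0 (0%), with 507 (2.04%) at an unadjusted p under 0.05 and 26 members among them. DESeq2 called 13 loci higher after adjustment (0.0466% of 27921), and 10 of these were members. Without RNAi replicate 3, edgeR called 3 loci higher (0.0121%), and 2 were members. The rule and these fits use the same contrast, so the counts of members place the set among the calls and are no support for it.

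Under the same rule turned around, with a WT mean of at least 1 CPM and every WT plant more than 1.5-fold above every RNAi plant, 75 loci were lower in RNAi, or 0.36% of the 20826 loci past that floor. The lower loci were 71.4% of both sets together by library total and between 66.7% and 77.8% under the other scalings. The difference between the 2 numbers was not tested. Groups that did not overlap, with no margin, were found at 1884 loci higher in RNAi, 8.92% of those past the floor.

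By locus number the members were spread from 1534 to 37024, at least 7 apart. Of the loci numbered directly before or after a member, 39 were past the floor. None of the 39 was a member, and their median log2 ratio of RNAi to WT means was 0.12, against 0.08 over all loci past the floor. Their groups did not overlap, with RNAi higher, at 8 of the 39 (20.5%), against 8.92% of all loci past the floor, a difference that was not tested. What the numbering says about position was not given in the sources used here.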

How the data were processed

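For each library the authors deposited raw counts, not normalized, at 37327 loci, with 5 summary rows. The submitters' processing notes list R 3.4.0, DESeq, HTSeq 0.6.1, Cufflinks and HISAT2 2.1.0, with no roles. Strandedness, annotation and genome build were not given in the sources used here, so loci with close copies or overlapping partners are uncertain. Summary rows, 25.9% to 29.1% of a library, were left out. Libraries were grouped by title. CPM was computed here as count divided by library total, times 1000000, with no other scaling. Fits across loci used edgeR 4.0.16 in R 4.3.3 (filterByExpr, TMM, robust quasi-likelihood F test, no covariate), with limma 3.58.1 and DESeq2 1.42.0 as alternatives, and simulated counts were used to check the fit. The members and lists were chosen with earlier results of these data known. The naming rule took the member with the widest gap among those with at least 10 counts in every library, and the member with the highest RNAi mean. The design text calls the plants of a group saplings, and p-values measure the spread between these libraries. Alternatives were other scalings, thinning to the shallowest library, margins, floors, tools, leaving out each library, and pairing by replicate number.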

Additional observations from a re-analysis of the deposited data

How the results depend on the processing

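The number of consistently higher loci was between 22 and 37 under the other scalings, with thinning and without the most abundant locus. TMM and DESeq2 size factors each gave 22 loci, 19 of them among the 30, and lowered the median log2 ratio over all loci by 0.07 and 0.08. Thinning gave 37 loci, of which only 22 were among the 30. Upper-quartile scaling gave 27 loci with 21 among the 30, and leaving out the most abundant locus gave 35 with 28. The number followed the margin by construction: 1884 at a margin of 1, 156 at a margin midway to 1.5, 3 at 2 and 0 at 3. It also followed the floor, with 327 loci without one, 55 at 0.5 CPM, 11 at 5 CPM and 10 CPM leaving 5. Leaving out 1 library, which loosens the rule, gave between 46 (without RNAi replicate 3) and 183 (without RNAi replicate 1). Pairing RNAi with WT libraries by replicate number, the replicate block, gave 142 loci, since each RNAi plant then had to exceed only 1 WT plant. Deviations from the group means correlated at -0.19, 0.42 and 0.28 between libraries of equal number. Between libraries of unequal number the correlations ran from -0.37 to 0.24. These values were not taken as pairing, and the labels tie no batch to the number. With the replicate block edgeR called 0 loci higher, and the median same-number ratio of summed levels was 2.27 against 2.95. Loci called higher moved from 0 in edgeR to 13 with DESeq2, and lay between 0 and 3 when 1 library was left out (3 without RNAi replicate 3). The ratio of summed levels lay between 2.35 and 3.36 without 1 library. Values of the plant order and of the left-out library under other settings were added after seeing the data. RNAi replicate 3 was the highest RNAi plant at 70.0% of members, at 45.5% with a floor of 5 CPM and at 40% with 10 CPM, and at between 71.7% and 84.2% without 1 library. The share that RNAi replicate 3 met when left out of the choice, 56.5%, was 37.8% with TMM and 38.6% with DESeq2 size factors; the cause was not tested. Fitted log2 fold changes lay between 1.36 and 1.55 for XLOC_031430 and between 0.93 and 1.82 for XLOC_035233. Both loci were chosen with every RNAi value above every WT value, so their sign in the fits was set by the choice. Depth limits the members under about 1 CPM in WT, where 10 counts correspond to between 0.266 and 0.417 CPM.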
